A study of Drosophila melanogaster with 2 samples.

Results

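The genes elav, fne and Rbp9 make up the ELAV family of *Drosophila melanogaster*, and the peaks of a chromatin immunoprecipitation experiment with sequencing (ChIP-seq) against the homeodomain factor Bsh (brain-specific homeobox) were examined around each of them. The members were taken by name, with earlier results of these data known, and they are 3 of 13945 protein-coding genes off the Y chromosome. Each was examined over its annotated span with 10 kb either side. Those 3 windows held 20 of the 7927 peaks that the authors kept by IDR (irreproducible discovery rate), which asks whether a peak has a like rank in each replicate. The chromatin came from whole embryos aged 10 to 12 h of a transgenic line, bsh-GFP, that carries Bsh fused at its C-terminus to green fluorescent protein, and it was precipitated with an antibody against GFP. No treatment is named, and there is 1 group with 2 biological replicates. The labels do not name the promoter that drives the fusion or the number of embryos per replicate. The chromatin is a mixture of all cell types of the embryo, so a peak does not say in which cells Bsh was bound. No control sample was analysed here, the number of reads behind each list is unknown, and no test was made. The main counts are set beside the share of all genes, starts or peaks, and counts without such a share are descriptions.

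ELAV family proteins bind RNA through RNA recognition motifs, mostly at stretches rich in U, and act on splicing, on the choice of poly(A) site and on mRNA stability. The elav gene is expressed in neurons throughout the nervous system, where its product is mainly nuclear, and the antibody against ELAV is a standard marker of neurons. The gene fne (found in neurons) encodes a related neuronal protein that is largely cytoplasmic. Rbp9 (RNA-binding protein 9) acts in neurons and in the female germ line. Transcripts of several neuronal genes, elav among them, are known to carry unusually long 3′ UTRs in neurons.

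Each member had IDR summits in its window, 7 at elav, 9 at fne and 4 at Rbp9. A summit in such a window was found for 70.5% of all protein-coding genes, so 3 of 3 members is not far from the background. The windows of elav, fne and Rbp9 measured 33992, 52941 and 33673 bp. Among genes of like window length, which was 27196 to 42426 bp for elav, 42363 to 66116 bp for fne and 26941 to 42074 bp for Rbp9, the shares with a summit were 81.4%, 79.2% and 81.3%. The numbers of summits lay above the medians of these genes, which were 2, 3 and 2. As many summits or more were found in 7.01% of the 1626 genes of like length for elav, in 9.65% of 549 for fne and in 28.9% of 1699 for Rbp9. Per 10 kb of window the members had 2.06, 1.70 and 1.19 IDR summits, in the order elav, fne, Rbp9.

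**Figure D1:**
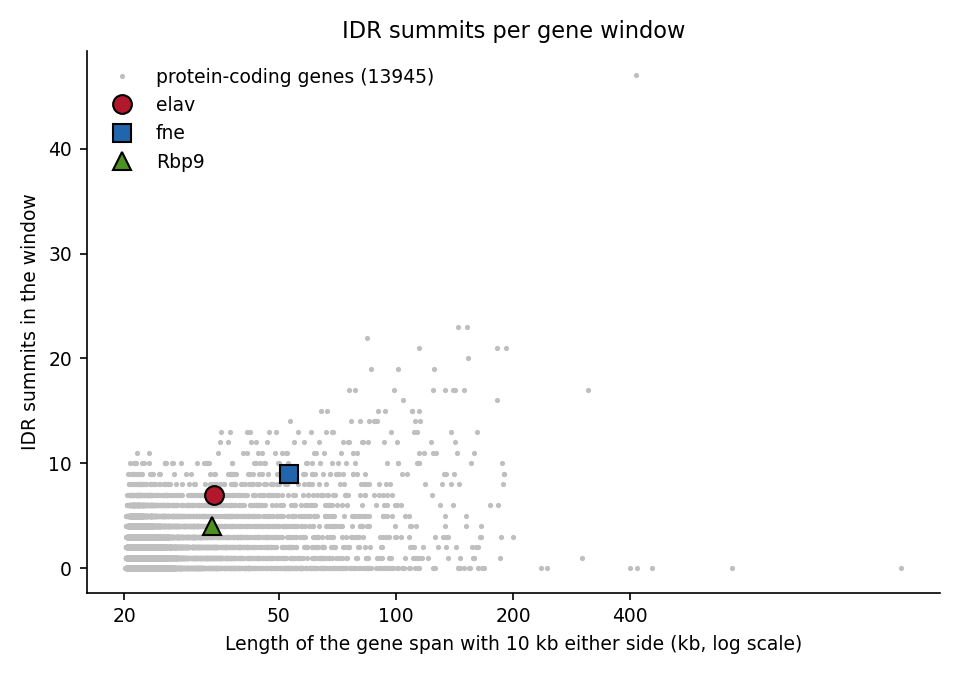
IDR summits per gene window (y axis) against window length, the span plus 10 kb at both ends, in kb on a log scale (x axis), with 1 grey point per protein-coding gene and the 3 members in colour. elav (7) and fne (9) sit in the upper part of the cloud at their window lengths and Rbp9 (4) lower in it.

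The members differed in where their peaks lay. Only elav had an IDR summit within 500 bp of a transcription start site (TSS) of its own, 1 of 3 members where 23.5% of all protein-coding genes had one. The next nearest summits were 519 bp from a TSS of fne, 607 bp from a TSS of elav and 860 bp from a TSS of Rbp9. With a limit of 1000 bp all 3 members had a summit near an own TSS, against 27.6% of all protein-coding genes. Those of fne and Rbp9 were near internal starts. The shares were not matched for the number of distinct starts, which was 2 at elav, 4 at fne and 3 at Rbp9. Of the 20 summits, 12 lay inside the span of a member and 13 had a member's TSS as the nearest protein-coding TSS. By class, 11 were intronic, 5 lay within 500 bp of a TSS of any annotated gene, 3 lay in 3′ UTRs and 1 was intergenic. None lay in a coding exon. Of all IDR summits 42.3% were intronic, 36.1% in promoters and 18.6% intergenic.

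**Figure D2:**
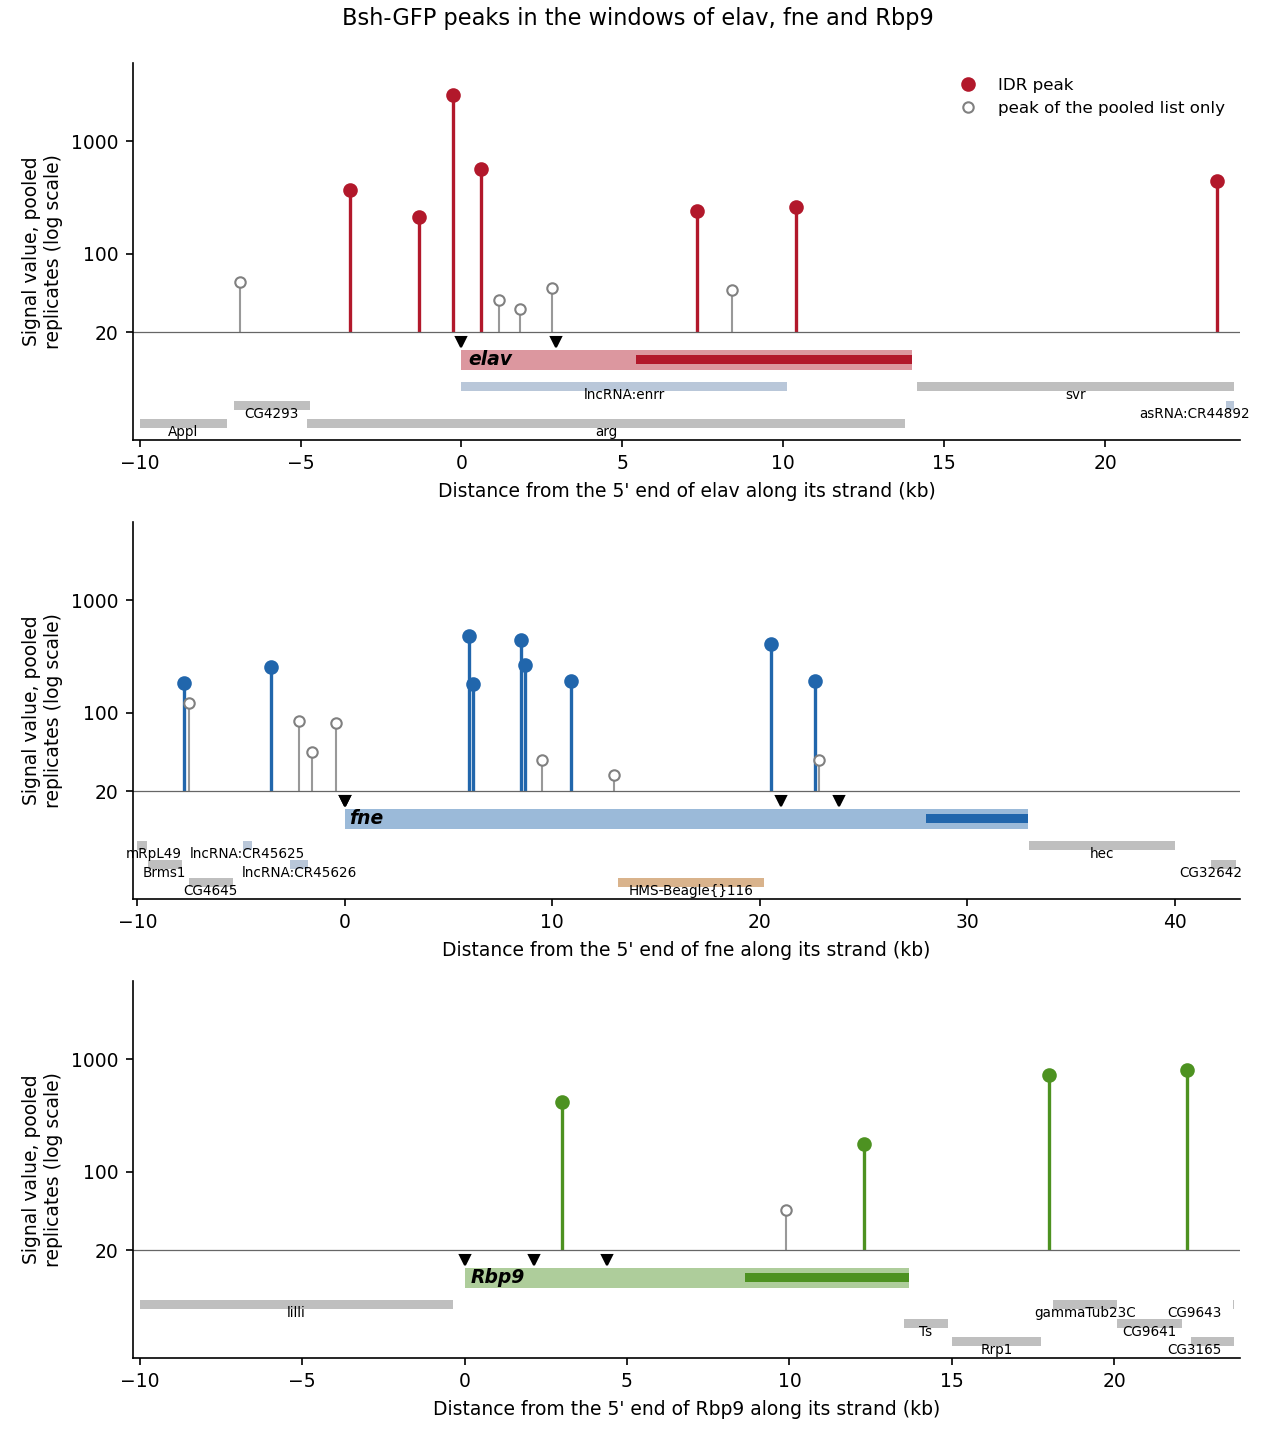
Peaks along the windows of elav (top), fne (middle) and Rbp9 (bottom), drawn by distance in kb from the 5′ end of each gene along its own strand (x axis) and by signal value in the pooled replicates on a log scale (y axis). Filled points are IDR peaks and open points are peaks of the pooled list only, triangles mark the annotated TSSs, the dark bar is the longest annotated 3′ UTR, and grey, blue and brown bars are neighbouring protein-coding genes, non-coding RNA genes and a transposable element copy. The tallest peak stands just upstream of elav at 2619.7, 7 of the 9 fne IDR peaks lie inside the gene, and the taller peaks of the Rbp9 window lie beyond its 3′ end.

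The gene elav (FBgn0260400) lies on the minus strand of X at 509235 to 523226 (assembly dm6, Ensembl gene models). Its 4 annotated transcripts start at 523226 or, for elav-RB, at 520285. The start at 523226 is shared with the non-coding gene lncRNA:enrr, which runs over the same strand. The gene arg, which encodes arginase, lies over elav on the opposite strand from 509435 to 528028. The peaks between these positions therefore lie in the span of both genes or upstream of elav within arg, and the peak lists do not assign them to either.

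The strongest peak of the 3 windows lay at the elav promoter (X, 523260 to 523703), with its summit at 523483, 257 bp upstream of the TSS. The signal value, a score from the authors' peak caller whose scale differs between lists, was 2619.7 in the pooled replicates, 1511 in replicate 1 and 1114 in replicate 2. By that value the peak ranked 110 of 30000 in the pooled list, 111 in replicate 1 and 121 in replicate 2. The summit fell on the same base in each list. The signal value was 4.60 times that of the next peak in the window, and the peak was the 67th strongest of 2863 IDR promoter peaks. A peak as strong within 500 bp of an own TSS was found for 0.631% of protein-coding genes, 88 genes with elav included.

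The sequence around this summit is shown because it carries the strongest signal of the family. It is given on the plus strand of dm6, 5′ to 3′, with TAAT, the core that many homeodomain proteins recognise, in capitals on either strand. The 201 bases lie at chrX:523383-523583, and elav is transcribed from beyond their left end, away from them.
elav promoter summit: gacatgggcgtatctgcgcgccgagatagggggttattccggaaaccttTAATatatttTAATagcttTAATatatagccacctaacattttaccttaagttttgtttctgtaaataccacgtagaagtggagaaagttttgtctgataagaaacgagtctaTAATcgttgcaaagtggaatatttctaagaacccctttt

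TAAT occurred 4 times in this stretch, with starts 51, 41 and 32 bases to the left of the summit and 62 bases to its right. The longer forms TAATTA and TAATTG did not occur. The 101 bases centred on the summit had a GC content of 27.7%, below the median of 30.7% for all IDR summits.

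A second peak lay inside elav (X, 522468 to 522781), with its summit at 522619 in the first part of the gene, 607 bp downstream of the TSS and in an intron. Its signal value was 569.9 in the pooled replicates, 337 in replicate 1 and 219 in replicate 2, and it ranked 1902 in the pooled list, 1819 in replicate 1 and 2251 in replicate 2. Its 101 bases at chrX:522569-522669 held no TAAT and had a GC content of 50.5%, so the neighbouring elav peaks, 864 bp apart, differ in base composition.
elav intron summit: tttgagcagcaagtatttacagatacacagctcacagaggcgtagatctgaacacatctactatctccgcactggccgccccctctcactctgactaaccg

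Upstream of elav and within arg lay the summits at 524536 and 526687, 1310 and 3461 bp from the elav TSS. The first had a signal value of 212 and ranked 5806 in the pooled list, 7985 in replicate 1 and 4431 in replicate 2. These ranks differed 1.80-fold, more than for any other of the 20 peaks. The second had a signal value of 372 and ranked 3236, 3566 and 3160 in the pooled list, replicate 1 and replicate 2. The TSS nearest to the second was that of CG4293, at 3162 bp. The last IDR summit of the window, at 499755, lay beyond the 3′ end of elav and 203 bp from a TSS of its neighbour svr (silver, a carboxypeptidase). It had a signal value of 443 and ranked 2633, 2676 and 2610 in the same order of lists.

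The remaining IDR summits of elav lay in its long 3′ UTR. The transcript elav-RD carries a 3′ UTR of 8557 bp, at 509235 to 517791, where those of the other transcripts measure 556 or 942 bp and end at 516850 or 517236. The summits at 512826 and 515909 fell in the part annotated to elav-RD alone among the elav transcripts. The one at 512826 had a signal value of 261 and ranked 4778 in the pooled list, 4108 in replicate 1 and 5402 in replicate 2. The one at 515909 had 242 and ranked 5108, 5499 and 5436, and it also lies in the span of lncRNA:enrr. Both lie in the span of arg as well.

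Rbp9 also had a summit in a 3′ UTR used by a single annotated transcript. It lay at 2967073 on 2L, within the 5048 bp 3′ UTR of Rbp9-RG, whereas those of the other transcripts end at 2964851. The signal value was 178, and the peak ranked 6866 in the pooled list, 7795 in replicate 1 and 6974 in replicate 2, so it is among the weaker IDR peaks. The summit lay 2565 bp from the TSS of the neighbour Ts (thymidylate synthase). The longest 3′ UTR of fne, with 4927 bp, held no IDR summit.

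Summits in 3′ UTRs were thus 3 of the 20 (15.0%), where 84 of all 7927 IDR summits (1.06%) had this class. A summit of this class lay in an own 3′ UTR in 0.635% of protein-coding genes with an annotated 3′ UTR, and in 2 of the 3 members. Longer 3′ UTRs hold more bases, and among the 146 genes with a 3′ UTR segment of at least 4 kb, a limit chosen after the values were seen, 3.42% had such a summit. These were 5 genes, elav and Rbp9 together with CG32767, Hr4 and NetB, which were looked up after the values were seen.

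The gene fne (FBgn0086675) lies on the plus strand of X at 12917477 to 12950417, with 11 annotated transcripts that start at 12917477, 12917484, 12938517 or 12941272. No IDR summit lay within 500 bp of any of them, and 7 of the 9 in the window lay in its introns. The strongest of the 9 had its summit at 12923447, 5963 bp downstream of the nearest own TSS. Its signal value was 478 in the pooled replicates, 265 in replicate 1 and 196 in replicate 2. It ranked 2390 in the pooled list, 2468 in replicate 1 and 2592 in replicate 2, well below the promoter peak of elav in each.

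The intronic summits of fne came partly in pairs. The summit at 12923669, with a signal value of 180.1 and ranks of 6775 (pooled), 7741 (replicate 1) and 7677 (replicate 2), lay 222 bp from that at 12923447. The summit at 12925954, with a signal value of 448 and ranks of 2593, 2523 and 2758, lay 204 bp from that at 12926158, which had 265 and ranks of 4688, 4654 and 6055. The peaks of the second pair overlap, so they can be parts of 1 bound region. Of the 20 summits, 4 lay within 300 bp of another IDR summit, where 4.19% of all IDR summits did.

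Farther along the gene, the summit at 12928384 had a signal value of 193 and ranks of 6321, 6016 and 7604. The summit at 12937998 had 409 in the pooled replicates, 233 in replicate 1 and 176 in replicate 2, with ranks of 2882, 2904 and 2951. It lay 519 bp upstream of the internal start at 12938517, just outside the limit of 500 bp, and 309 bp from the annotated start of a copy of the retrotransposon HMS-Beagle in the same intron. Starts of transposable elements were not counted as promoters; if they were, this summit would be classed as promoter in place of intron. The summit at 12940124, 1148 bp upstream of the start at 12941272, had 191 and ranks of 6394, 7200 and 6245.

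The sequences of the stronger intronic summits of fne, 1 pair partner and the intronic summit of Rbp9 are shown because they hold all matches to the longer homeodomain forms. The 101 bases centred on each summit are on the plus strand of dm6, 5′ to 3′, with TAAT and the longer TAATTA and TAATTG in capitals on either strand. They lie at chrX:12923397-12923497, chrX:12923619-12923719, chrX:12925904-12926004, chrX:12937948-12938048 and chr2L:2957721-2957821.
fne 12923447: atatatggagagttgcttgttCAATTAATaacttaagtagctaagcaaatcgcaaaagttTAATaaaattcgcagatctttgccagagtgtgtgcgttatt
fne 12923669: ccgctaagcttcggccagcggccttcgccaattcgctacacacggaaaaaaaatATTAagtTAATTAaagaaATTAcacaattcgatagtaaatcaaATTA
fne 12925954: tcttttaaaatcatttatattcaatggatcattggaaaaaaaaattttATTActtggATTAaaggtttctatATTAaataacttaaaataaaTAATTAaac
fne 12937998: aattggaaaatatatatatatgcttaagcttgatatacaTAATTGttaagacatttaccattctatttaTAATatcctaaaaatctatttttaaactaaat
Rbp9 2957771: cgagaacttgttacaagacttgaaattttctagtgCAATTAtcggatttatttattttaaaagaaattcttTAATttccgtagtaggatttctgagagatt

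The other IDR summits of the fne window lay upstream of the gene and nearer to other genes. The summit at 12909750, with a signal value of 183 and ranks of 6668, 6316 and 7765, lay 128 bp from the TSS of Brms1 and 7727 bp from that of fne. It lay between that TSS and the start of CG4645 at 12909953 on the opposite strand, and in replicate 1 the summit was nearest to CG4645. This peak had the largest gap between the summits of the replicates, 111 bp. The summit at 12913915, with 256 and ranks of 4866, 4630 and 5792, was the single intergenic one. It lay 929 bp from the start of lncRNA:CR45626 and 3562 bp upstream of fne, whose TSS was the nearest protein-coding one.

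The gene Rbp9 (FBgn0010263) lies on the plus strand of 2L at 2954762 to 2968434, with 9 annotated transcripts that start at 2954762, 2956911 or 2959147. Apart from the 3′ UTR summit, it held 1 IDR summit inside the gene, at 2957771 in an intron, 860 bp downstream of the start at 2956911. Its signal value was 414 in the pooled replicates, 250.1 in replicate 1 and 167 in replicate 2, and it ranked 2855, 2665 and 3136. The stronger peaks of the window belonged by position to other genes. The summit at 2972763, with a signal value of 734 and ranks of 1336, 1198 and 1672, lay 128 bp from the TSS of gammaTub23C (a gamma-tubulin). It lay between that TSS and the start of Rrp1 at 2972508 on the opposite strand. The summit at 2977015, with 798 and ranks of 1176, 1104 and 1311, lay 107 bp from the TSS of CG3165. It lay between that TSS and the start of CG9641 at 2976862 on the opposite strand. These summits were 13616 and 17868 bp from the nearest TSS of Rbp9, beyond its 3′ end. With 2 kb either side of the gene the window held 2 summits in place of 4.

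**Figure D3:**
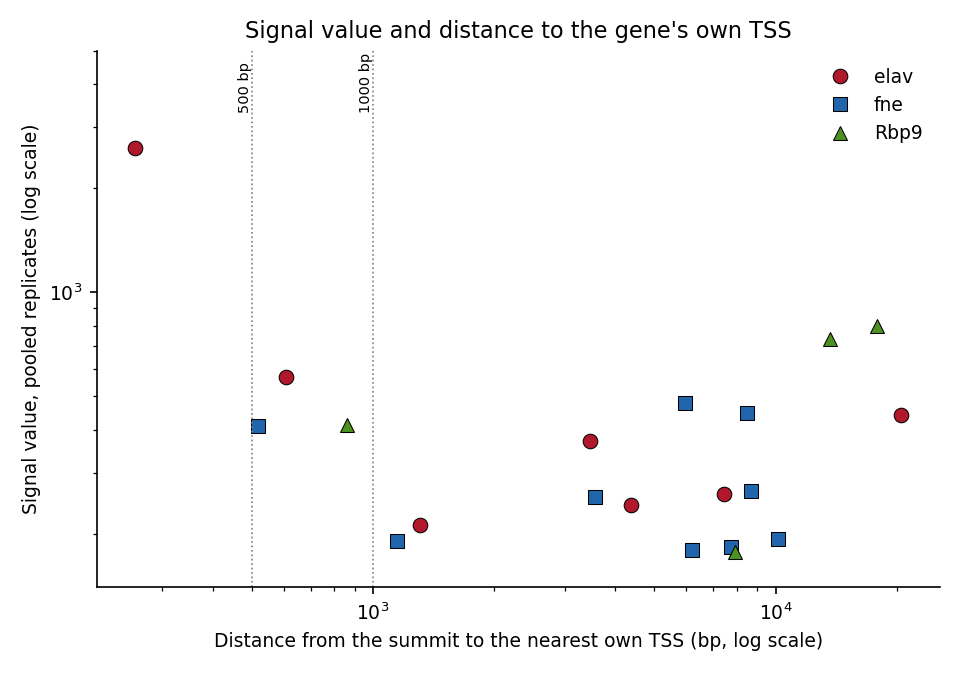
Signal value in the pooled replicates (y axis, log scale) against the distance from the summit to the nearest own TSS in bp (x axis, log scale) for the 20 IDR peaks, with dotted lines at 500 and 1000 bp. The elav promoter peak, 2619.7 at 257 bp, stands alone at the upper left, and both Rbp9 points at the upper right are those near gammaTub23C and CG3165.

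The replicates placed the IDR peaks of the family alike. Each of the 20 had an overlapping peak in both replicates, the summits of the replicates lay a median of 13 bp apart and at most 111 bp, and the larger of the replicate ranks was a median of 1.17 and at most 1.80 times the smaller. The IDR set consists of the 7927 peaks with the highest signal values in the pooled list, so this describes peaks already selected on both replicates. The median signal value of the 20 was 319, near the median of 312 for all IDR peaks, and 1 of them, at the elav promoter, was among the 1000 strongest.

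**Figure D4:**
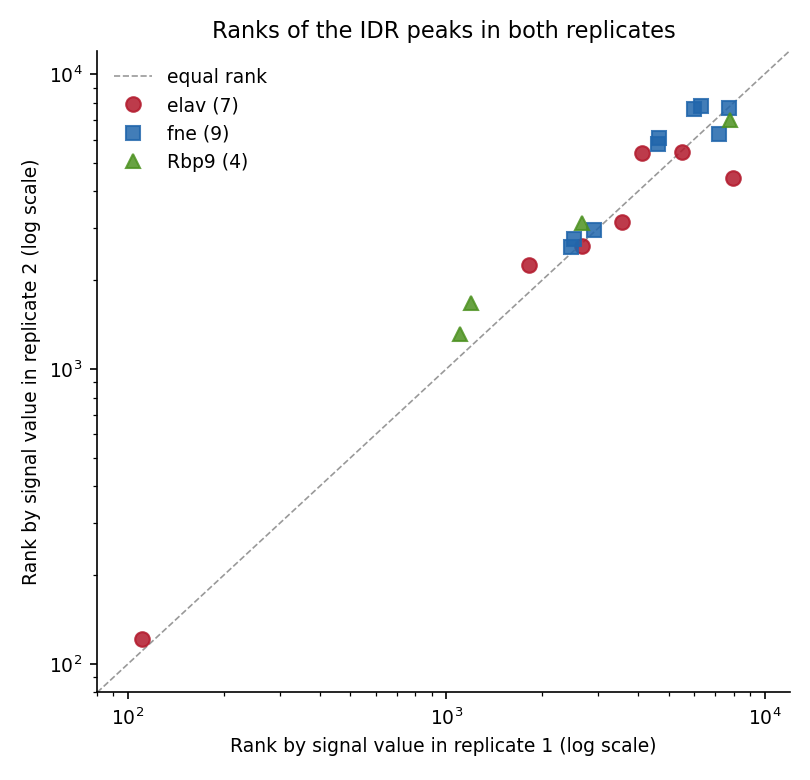
Rank by signal value in replicate 2 (y axis) against rank in replicate 1 (x axis), both on log scales, for the 7 IDR peaks of the elav window, the 9 of fne and the 4 of Rbp9, with a dashed line of equal ranks. The elav promoter peak lies far below the rest at 111 and 121, and the point farthest from the line is the elav peak with ranks of 7985 and 4431.

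Within 50 bp of the summits, motif letters occurred about as often as near all IDR summits. TAAT was found at 15 of 20 summits (75.0%, against 80.2% of all IDR summits). TAATTA was found at 2 (10.0% against 11.0%) and TAATTG at 3 (15.0% against 10.9%); both contain TAAT. These 5 summits lay in introns, 4 of fne and 1 of Rbp9, and none in the elav window. TATCGAT, bound by the factor DREF, GAGAGAG of the GAGA factor, CAGGTAG of Zelda, the E-box CAGCTG and GGTCACA of a core promoter motif were found at none of the 20. The shares of all IDR summits with these were 2.41%, 0.984%, 0.328%, 2.51% and 0.997%. The GC content within 50 bp ranged from 15.8% to 53.5% with a median of 32.2%.

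Below the IDR set, the pooled list held 13 further peaks in the windows, 5 at elav, 7 at fne and 1 at Rbp9. Of the 8 annotated starts of the members with no IDR summit within 500 bp, 4 had a summit of both replicates within that distance, where 26.2% of such starts of all protein-coding genes had one. The first 2 starts of fne, which lie side by side, share their peak, so the 4 are not separate counts. No limit on the q-value was set for the 4 or for the share. For elav-RB, a summit at 520422, 137 bp upstream of its start, ranked 18753 in the pooled list, and both replicates had a peak there, with ranks of 24930 and 19479. For the first starts of fne, a summit at 12917064, 413 bp upstream of the first, ranked 13101 in the pooled list and 13687 in replicate 1. Replicate 2 had summits at 12916868 and 12917084 with ranks of 18665 and 20543. The −log10 q-values were 2.85, 2.61, 1.30 and 1.08 in that order. For the Rbp9 start at 2956911, the replicates had summits at 2956595 and 2956592, 316 and 319 bp upstream. They had ranks of 16211 and 10621 and −log10 q-values of 1.80 and 4.34, but the pooled list had no peak that overlapped them. The start of fne at 12938517 had a summit within 500 bp in replicate 1 alone, that of the IDR peak at 12937998. The starts at 12941272 of fne and at 2954762 and 2959147 of Rbp9 had none in either replicate.

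The other pooled peaks at elav were at 514820 in the long 3′ UTR (rank 19414), at 521403 (26324) and 522068 (22912) in introns, and at 530112 (17170) in the promoter of CG4293. At fne they were at 12909955 (9506), 12915271 (12556) and 12915896 (20447) upstream, and at 12926998 (23010), 12930465 (29461) and 12940324 (23153) in introns. The one at Rbp9 was at 2964645 in the 3′ UTR (20102). The −log10 q-values of these other pooled peaks ran from 0.414 at 12930465 to 4.33 at 12909955, so they are not equally certain. Replicate 1 held 34 peaks and replicate 2 held 38 in the 3 windows.

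Some peaks of a replicate had no overlapping pooled peak. In the elav window replicate 1 had 6, at 501087, 509318, 510271, 525994, 527802 and 528273, and replicate 2 had 4, at 504518, 509659, 525262 and 531008. Those at 509318 and 509659, in the 3′ UTR of elav next to the start of arg, overlapped only at their edges, with ranks of 27468 and 20656. The peaks ran from 509133 to 509502 and from 509484 to 509833, with summits on either side of that start. Their −log10 q-values were 0.522 in replicate 1 and 1.07 in replicate 2. In the fne window replicate 2 had 1, at 12925372 (rank 24324), and replicate 1 had none. In the Rbp9 window, apart from the pair at 2956595 and 2956592, replicate 2 had 1 at 2955831 (rank 19631). None of these ranked above 10621. Their −log10 q-values ran from 0.512 at 504518 to 4.34 at 2956592.

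By the ranks of the strongest IDR summit within 500 bp of an own TSS, in 3 lists from 2 replicates, the genes most like elav were CG7841, C1GalTA and Fhos. Likeness was the Euclidean distance of the log2 ranks in the pooled list, replicate 1 and replicate 2. It was 0.135 for CG7841, which ranked 104, 105 and 115. It was 0.195 for C1GalTA, a glycosyltransferase gene, which ranked 113, 103 and 135, and 0.196 for Fhos, a formin gene, which ranked 111, 100 and 111. No such comparison was made for fne and Rbp9, which had no such summit.

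Genes whose transcripts ELAV is known to regulate were looked at in the same way, in a list chosen with earlier results of these data known. Of 12 such genes, fne itself included, 11 had an IDR summit in the window with 10 kb either side (91.7%, against 70.5% of all protein-coding genes), and 5 had one within 500 bp of an own TSS (41.7% against 23.5%). Their windows were longer, with a median of 49498 bp and 3.5 summits, than those of all protein-coding genes, with 22166 bp and 1 summit. The background shares were not matched for window length or for the number of starts per gene. The strongest peaks were those of brat (2377), a translational repressor of neural stem cell daughters, pum (2240.9), the repressor Pumilio, nej (1588), a histone acetyltransferase, and mei-P26 (769.7), a TRIM-NHL protein. The peaks of brat and nej lay 713 and 671 bp from an own TSS, that of pum was nearest to Kdm2, at 4274 bp, and that of mei-P26 lay 120 bp from the TSS of CG12118. Adar, which encodes the enzyme of A-to-I RNA editing, had none in its window.

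Of 20 genes listed for other RNA-binding proteins of neurons, 18 had an IDR summit in the window (90.0% against 70.5% of all protein-coding genes) and 12 within 500 bp of an own TSS (60.0% against 23.5%). The list was fixed by name with earlier results of these data known, and whether its genes are limited to neurons was not checked. The median window of the 20 was 69970 bp with 5 summits, longer than the 22166 bp with 1 summit of all protein-coding genes. Here too the background shares were not matched for window length or for the number of starts per gene. The 20 were led by msi (4267), which encodes Musashi and whose summit lay 233 bp from an own TSS with rank 32, and mub (2414.5), 908 bp from an own TSS, followed by brat and pum. Adar and Syp, a Syncrip homologue, had none. brat, pum, Imp and Adar belong to both lists, so the lists are not separate counts.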

How the data were processed

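Peaks came from ChIP-seq of whole embryos of the bsh-GFP line, with 2 biological replicates of 1 group numbered as in the labels. Per the labels the assembly is dm6 and chromatin was sonicated, with a size range of 200 to 800. The deposited text files name 1 control file for all peak calling, which was done for either replicate and for both pooled, and derive the IDR set from these 3 lists. Aligner, peak caller and threshold: not given in the sources used here. In the deposited lists the signal value is a score whose scale differs from list to list, so only ranks were compared across them. The −log10 of the q-value in the deposited lists was not used to choose, class or rank peaks, and is printed only where weaker peaks are described. The deposited lists also give the summit in bp from the peak start, and summits are printed 1-based (column 2 plus column 10 plus 1). The depth behind each list is unknown.

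Gene models were those of Ensembl release 115 and sequence was that of *Drosophila melanogaster* genome release 6; all peaks lay within its chromosome lengths. Transposable element copies were left out. A summit within 500 bp of a TSS of any gene was classed as promoter; the others went to the first that applied of 5′ UTR, then 3′ UTR, then coding or other exon, then intron, and otherwise to intergenic. Replicate peaks were matched by an overlap of at least 1 bp. The 8 motifs, of up to 7 letters, were searched on both strands. Tables were made with pandas 2.3.3 and numpy 2.4.6 under Python 3.11.15 and figures with matplotlib 3.10.9, and counting was checked on simulated data. The genes named are the members, genes nearest to their summits or in their windows, in each list the 4 with the strongest summit and up to 3 with none, and the 3 most like a member. Members and lists were chosen with earlier results of these data known. No test was made, because 1 group of 2 replicates has no contrast.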

Additional observations from a re-analysis of the deposited data

How the results depend on the processing

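Of 55 values set beside another setting, 39 stayed within 1.5 times the reported count (for ranks, within 1 SD of the replicates). Among the 39, the count of 2 members with a 3′ UTR summit could not move. Only its background share changed, from 0.635% to 3.42% with the limit of 4 kb. Other values had little room to move. The peaks matched between replicates had already been selected on both, and motif counts cannot fall in a wider window. For ranks the SD came from the same replicate ranks that were judged by it. For motifs the counts alone were compared, although the shares of all IDR summits rose in the wider window. With the gene span alone elav had 3 IDR summits and Rbp9 had 2, and with 2 kb either side Rbp9 had 2. Among the 3963 strongest IDR peaks elav had 4 and fne 3, and among the 1000 strongest elav had 1 and fne and Rbp9 had 0, so that 1 member had a summit; these sets hold fewer peaks by construction. A summit near an own TSS was found for 3 members within 1000 bp and for 0 within 100 bp. With 1 replicate left out, between 1 and 2 members had one within 500 bp: fne gained it without replicate 2, where the summit at 12937998 lies at 12938019. The rank of the strongest summit then lay between 111 and 121 for elav and between 2468 and 2592 for fne. Within 100 bp of the summit GAGAGAG and CAGCTG each occurred at 2 of 20 summits in place of 0 (10.0%, against 2.89% and 6.67% of all IDR summits at that distance). No paired analysis was possible because there is 1 group. The unknown depth limits what can be said of peaks below the IDR set.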
